A study of Mus musculus with 27 samples.

Results

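The change in liver RNA at day 8 post coitum was averaged over the lobular zones, so a change in only some zones counts. It was measured as the difference between 9 libraries of pregnant mice (dpc8) and 9 of non-pregnant mice (NP), with zone as a factor. These are 18 of the 27 libraries of the series, and 12541 of the 21823 genes in the table were tested, those that reached 1 FPKM in 3 or more of the 18. FPKM counts the fragments of a gene per kilobase of transcript, relative to all mapped fragments of the library. All mice were wild-type females labelled C57BL/6, given in the study's methods as C57BL/6N virgins before mating, and the labels tell the groups apart by pregnancy and zone. The study's methods give the mice a range of ages, and the age behind each library is not given in the sources used here. Areas of zones 1, 2 and 3 were cut from frozen liver sections with a laser and sequenced after removal of ribosomal RNA. Each stage and zone has 3 libraries, and 9 further libraries from day 16 (dpc16) are given for reference only. The labels do not name the mouse behind a library, and the study describes 3 independent experiments. Libraries of different zones may therefore share a mouse, in which case p-values over 9 against 9 libraries are too small, and all p-values measure only the spread between these libraries.

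The liver lobule runs from the portal vein, which zone 1 surrounds by convention, to the central vein in zone 3. Its hepatocytes make most plasma proteins, store glucose as glycogen, synthesize lipids and clear drugs and hormones, and many of these tasks are divided between zones. Several liver genes also follow the sex of the animal through the pattern of growth hormone, and the hormones of pregnancy act on the maternal liver through the prolactin receptor, among others.

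Over the 18 libraries the FPKM sum ranged from 499866 to 704327, and 10675 to 11997 genes reached an FPKM of 1. The depth estimated from the spacing of low values was 11.25 to 26.8 M reads (M for mega), so that 1 read on a transcript of 1 kilobase corresponds to 0.037 to 0.089 FPKM. Libraries of one stage and zone correlated at 0.850 to 0.973. In 4 libraries (replicate 1 of zone 1 at both stages, replicate 2 of NP zone 3 and replicate 2 of dpc8 zone 2) 4 Y-linked genes summed to 7.92 to 20.5 FPKM, although all mice are labelled female. The other 14 libraries had at most 2.81. The same 4 libraries had a mean log2(FPKM + 1) of 5.09 to 6.39 over the markers of smooth muscle and connective tissue, against 1.27 to 4.22 in the others.

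In the comparison of dpc8 with NP, 7 genes were higher and 5 lower at an adjusted p under 0.05 (limma, Benjamini-Hochberg adjustment over all genes tested). These 12 genes are 0.0957% of the genes tested, with 0.0558% higher and 0.0399% lower. An unadjusted p under 0.05 was reached by 909 genes (7.25%), 444 higher (3.54%) and 465 lower (3.71%). The median change over all genes was 0.00 on the log2 scale. Without the 4 libraries with Y-linked FPKM, 17 genes passed, 9 higher and 8 lower, and 10 of the 12 were among them. When the 3 zones were first averaged for each stage and replicate number, which leaves 3 values against 3, 1 gene passed. None of the genes described below did so, and A1bg then had a limma adjusted p of 0.0703.

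**Figure D1:**
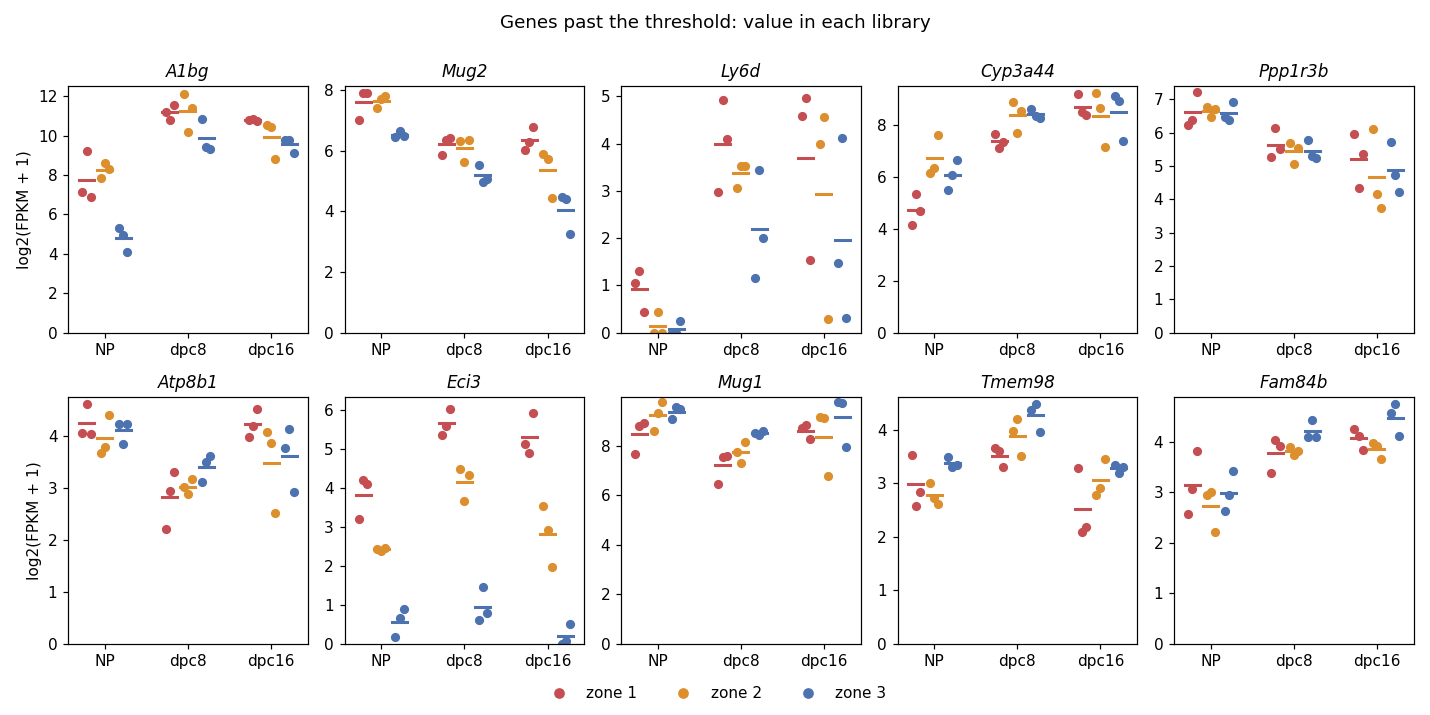
Value of 10 genes past the threshold in every library on the log2(FPKM + 1) scale, by stage and zone, with points for libraries and short lines for means of 3 libraries. A1bg lay between 16.1 and 590 FPKM in NP and between 628 and 4411 FPKM at dpc8.

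A1bg, which encodes a plasma glycoprotein of the immunoglobulin superfamily and is more abundant in female than in male mouse liver, had the largest change of the genes described on the log2(FPKM + 1) scale. With a pseudocount of 0.1 in place of 1 its change was 3.85, under the 4.81 of Ly6d described below. In NP its FPKM was 16.1 at the lowest, 141 at the median and 590 at the highest, and the low values were those of zone 3. At dpc8 it was 628, 1831 and 4411, all above the NP values. The change was 3.83 ± 0.39 (SE, limma adjusted p = 6.38e-05), or 14.2-fold in FPKM + 1. It was 3.46 in zone 1, 2.97 in zone 2 and 5.06 in zone 3, and the test of a difference between zones gave an unadjusted p of 0.0596 in limma. Averaged over zones by replicate number, the 3 dpc8 values of mean log2 were 10.1, 10.8 and 11.4 and the 3 NP values 6.43, 6.77 and 7.59. The two-sided exact permutation test of these 6 values gave p = 0.1, the smallest that 3 against 3 allows.

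The promoter window of A1bg is shown because of the size of its change on the log2(FPKM + 1) scale. RefSeq on GRCm38.p6 places it at chr15:60921221-60921520 on the minus strand, from 250 bases before to 50 bases after the start of the transcript. The capitals mark a match to TTCNNNGAA, the form bound by STAT factors, 84 bases before the start. Searched on both strands, this form occurs in 8.3% of 32851 promoter entries of the same length, and the match says nothing about binding.
A1bg: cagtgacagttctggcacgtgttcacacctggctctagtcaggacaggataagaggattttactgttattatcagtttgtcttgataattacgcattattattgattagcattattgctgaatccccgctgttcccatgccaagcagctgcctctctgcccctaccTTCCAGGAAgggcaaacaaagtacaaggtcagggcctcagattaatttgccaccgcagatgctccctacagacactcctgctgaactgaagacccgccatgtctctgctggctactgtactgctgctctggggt

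Among the other genes that rose were a P450, a surface protein, an enzyme of fat breakdown and a pair of less studied genes. Cyp3a44, a female-biased member of the cytochrome P450 3A family of drug- and steroid-oxidizing enzymes, ranged from 16.6 to 194 FPKM in NP with a median of 65.3. At dpc8 it ranged from 137 to 461 with a median of 303, and 7 of 9 values were above every NP value. Within each zone the 3 dpc8 values were all above the 3 NP values. The change was 2.21 ± 0.24 (SE, limma adjusted p = 8.82e-05).

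Ly6d, a lipid-anchored surface protein used as a marker of early B cells and of squamous epithelium, was listed at 0 in 4 NP libraries and at most at 1.45 FPKM in the others. At dpc8 it was 1.22 at the lowest, 9.91 at the median and 29.6 at the highest, and 8 of 9 values were above every NP value. The spread at dpc8 was wide, but the stages did not overlap within any zone. The change was 2.81 ± 0.30 (SE, limma adjusted p = 7.73e-05). Its size depended on the pseudocount, with 1.37 for a pseudocount of 5 and 4.81 for 0.1. With zone 2 left out the limma adjusted p was 0.0622.

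Eci3, an enoyl-CoA isomerase that takes part in the oxidation of unsaturated fatty acids, had an FPKM of 0.123 to 17.4 in NP and 0.525 to 64.5 at dpc8, with medians of 4.42 and 19.2. Its level fell from zone 1 to zone 3 at both stages. In zone 3 it was low and the stages overlapped, at 0.123 to 0.844 FPKM in NP and 0.525 to 1.76 FPKM at dpc8. The change was 1.32 ± 0.24 (SE, limma adjusted p = 0.0314), with 1.84 in zone 1, 1.74 in zone 2 and 0.39 in zone 3, and 6 of the 18 fits on 17 libraries and 11 of the 19 other alternatives kept the call. Without the 4 libraries with Y-linked FPKM the limma adjusted p was 0.0547. Its test of a difference between zones had the smallest p of the 12 genes, 0.0102 unadjusted and 0.9998 adjusted in limma.

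Tmem98, a transmembrane protein, had an FPKM of 4.98 to 10.6 in NP and 8.84 to 21.4 at dpc8, with medians of 7.07 and 14.6. Its change was 0.85 ± 0.15 (SE, limma adjusted p = 0.0314), and 4 of the 18 fits on 17 libraries and 12 of the 19 other alternatives kept the call. Fam84b, whose function is little known, had an FPKM of 3.61 to 13.1 in NP and 9.43 to 20.5 at dpc8, with medians of 6.74 and 14.0. Its change was 0.98 ± 0.18 (SE, limma adjusted p = 0.0437), with the call kept in 2 of the 18 fits on 17 libraries and 8 of the 19 other alternatives. Without the 4 libraries with Y-linked FPKM the limma adjusted p of Fam84b was 0.0915. In both genes zone 1 was the zone in which the stages overlapped.

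Among the genes that fell were a pair of protease inhibitors, a regulator of glycogen and a lipid transporter. Mug2 and Mug1 encode murinoglobulins, plasma protease inhibitors of the alpha-2-macroglobulin family made by hepatocytes. Mug2 had an FPKM of 86.1 at the lowest, 171 at the median and 239 at the highest in NP, and of 30.6, 56.8 and 85.3 at dpc8, with no overlap. The change of Mug2 was -1.42 ± 0.15 (SE, limma adjusted p = 7.73e-05), 2.67-fold lower in FPKM + 1, and lay between -1.54 and -1.32 in the 3 zones.

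Mug1 had an FPKM of 201, 544 and 880 in NP and of 87.6, 217 and 387 at dpc8. The stages overlapped across zones but not within any zone. The change of Mug1 was -1.21 ± 0.22 (SE, limma adjusted p = 0.0314), with the call kept in 7 of the 18 fits on 17 libraries and 10 of the 19 other alternatives.

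The promoter windows of both genes are shown because the genes fell together and are near copies of each other. RefSeq on GRCm38.p6 places them on the plus strand at chr6:121838291-121838590 for Mug1 and chr6:122006548-122006847 for Mug2. The capitals mark the longest run that both share, 60 bases, and 96.1% of 256 aligned bases were identical. The transcripts were not compared here and the study kept uniquely mapped reads, so how far reads common to both genes were lost is not known, and the separate values of these paralogs are uncertain.
Mug1: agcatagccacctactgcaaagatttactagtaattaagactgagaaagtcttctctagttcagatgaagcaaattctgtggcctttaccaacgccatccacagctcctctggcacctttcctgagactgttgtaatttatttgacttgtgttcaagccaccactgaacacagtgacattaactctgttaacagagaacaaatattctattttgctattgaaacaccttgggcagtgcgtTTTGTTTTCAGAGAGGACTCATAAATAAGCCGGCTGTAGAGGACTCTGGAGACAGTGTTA
Mug2: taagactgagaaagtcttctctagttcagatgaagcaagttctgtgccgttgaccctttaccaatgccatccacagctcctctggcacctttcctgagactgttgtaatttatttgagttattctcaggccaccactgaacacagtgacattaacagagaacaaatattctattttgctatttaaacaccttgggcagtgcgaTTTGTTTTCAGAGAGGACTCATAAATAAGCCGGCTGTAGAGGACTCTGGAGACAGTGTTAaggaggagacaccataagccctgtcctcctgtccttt

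Cyp3a44 has near copies as well. Its window, at chr5:145805825-145806124 on the minus strand, shares a run of 55 bases, in capitals, with that of Cyp3a16 at chr5:145469674-145469973, and 95.9% of 296 aligned bases were identical. Cyp3a16 did not pass the threshold and is shown here because its values were seen to be similar. It had medians of 37.5 FPKM in NP and 263 at dpc8 and a change of 1.68 ± 0.40 (SE, limma adjusted p = 0.165). The values of these paralogs are uncertain for the same reason.
Cyp3a44: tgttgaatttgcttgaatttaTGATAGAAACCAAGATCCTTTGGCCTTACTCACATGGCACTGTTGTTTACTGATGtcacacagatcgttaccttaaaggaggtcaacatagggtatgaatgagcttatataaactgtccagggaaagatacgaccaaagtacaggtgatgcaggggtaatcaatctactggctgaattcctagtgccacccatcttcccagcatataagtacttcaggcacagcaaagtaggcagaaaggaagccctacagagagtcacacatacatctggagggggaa
Cyp3a16: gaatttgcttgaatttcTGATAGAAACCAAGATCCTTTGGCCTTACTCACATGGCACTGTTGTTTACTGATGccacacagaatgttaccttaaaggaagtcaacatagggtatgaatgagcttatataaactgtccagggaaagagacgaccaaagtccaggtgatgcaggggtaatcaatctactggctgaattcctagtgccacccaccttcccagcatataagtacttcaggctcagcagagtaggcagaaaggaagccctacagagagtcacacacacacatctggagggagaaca

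Ppp1r3b directs protein phosphatase 1 to glycogen and thereby favours glycogen synthesis. It had an FPKM of 74.3, 87.6 and 148 in NP and of 32.4, 44.1 and 69.1 at dpc8, with no overlap. The change was -1.11 ± 0.16 (SE, limma adjusted p = 0.00307), and the zones lay between -1.21 and -0.98. The call was lost with all 27 libraries in the fit (limma adjusted p = 0.212), with zone 2 left out (0.284) and with zone 3 left out (0.129). Of the 26 genes of glucose and glycogen metabolism tested, Ppp1r3b among them, 11 were higher and 15 lower with a median of -0.10. At an unadjusted p under 0.05, 2 were lower and 0 higher, and these 2 passed the adjusted threshold. Without 1 library the median ran from -0.15 to 0.00, and with zone 2 left out it was 0.04.

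Atp8b1, a flippase that moves phospholipids between the leaflets of the canalicular membrane, had an FPKM of 11.7, 15.6 and 23.4 in NP and of 3.61, 7.59 and 11.3 at dpc8, with no overlap. The change was -1.01 ± 0.17 (SE, limma adjusted p = 0.0206), and 15 of the 18 fits on 17 libraries and 11 of the 19 other alternatives kept the call. It was lost, among others, under quantile normalization (limma adjusted p = 0.0554), median centring (0.0563), all 27 libraries (0.0558) and each left-out zone (0.126 to 0.397).

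**Figure D2:**
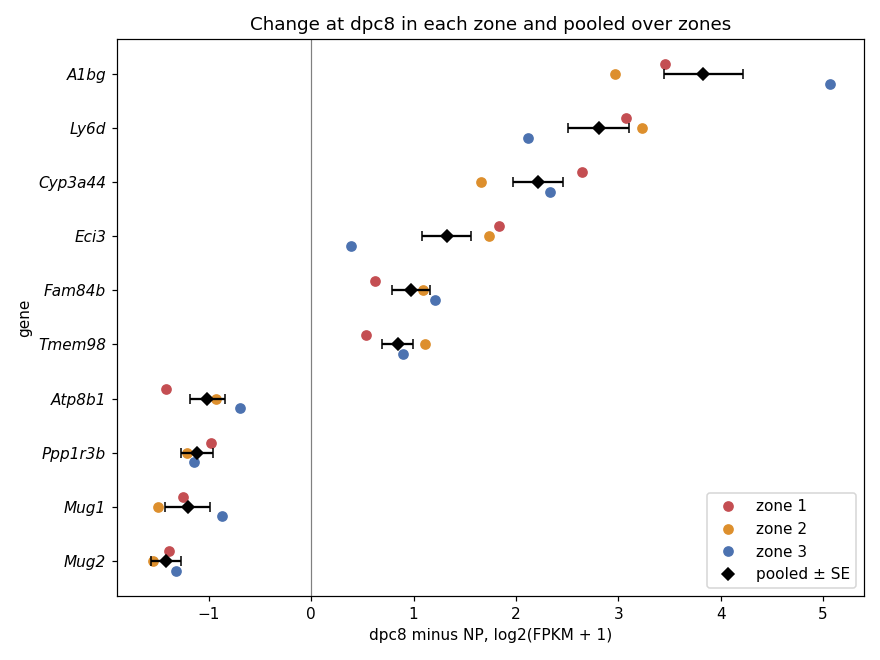
Difference between dpc8 and NP on the log2(FPKM + 1) scale for 10 genes past the threshold, with coloured points for each zone and black diamonds for the fit pooled over zones with its SE. All zone values lie on the side of the pooled value. The nearest to 0 is 0.39 for Eci3 in zone 3, where its stages overlapped.

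All 12 genes had the same sign in the 3 zones, against 29.5% of the genes tested. The pooled test favours such genes, so this count describes the selection. Without any overlap between 9 and 9 values, 2 genes were above NP (0.0159% of the genes tested) and 4 below (0.0319%). A1bg was among those above, and those below were Mug2, Ppp1r3b, Atp8b1 and Clec14a. Clec14a, an endothelial surface lectin, had an FPKM of 3.77 to 5.98 in NP and 1.82 to 3.71 at dpc8 and a change of -0.50 (limma adjusted p = 0.297). No gene passed the test of a difference between zones in the dpc8 change (limma, 0%), and 287 genes (2.29%) had an unadjusted p under 0.05 in it.

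The dpc16 libraries were compared with the same NP libraries, so their values are set beside the others without a test. Their FPKM sums reached 988500, above those of the other stages. Replicate 3 of zones 2 and 3 stood apart among them, with a Y-linked sum of 23.2 and 16.6 FPKM and a connective tissue mean of 6.56 and 6.30. A1bg stood at 451 to 1813 FPKM at dpc16 and was above every NP value in 7 of 9 libraries, the exceptions being those 2 libraries. Ppp1r3b (12.3 to 67.9 FPKM) was below every NP value in 9 of 9, and Mug2 in 8 of 9. Atp8b1, Mug1 and Tmem98 were within the NP range in 7, 8 and 7 of 9 dpc16 libraries. The 2 dpc16 values of Atp8b1 below the NP range came from the same 2 libraries, and their part in these values was not tested.

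Below the threshold, the nearest gene was Lrg1, a secreted acute phase glycoprotein, with a change of 1.20 and a limma adjusted p of 0.0508, and then Aprt, an enzyme of purine salvage, with 0.71 and 0.0521. These were named after their values were seen. The remaining groups are lists of genes with known roles, and apart from the genes above none of their members passed the adjusted threshold in the fit of all 18 libraries, though some did under other alternatives. They are described by how many members lay above or below 0, by their median, and by how many had an unadjusted p under 0.05, set beside 3.54% higher and 3.71% lower over all genes. Over all genes, 49.9% lay above 0. In 31 of 36 lists, cell markers included, leaving out some single library moved the median by over 1.5 times, and in 10 of the 36 it changed the sign. The lists not moved so far were mitosis, drug-metabolizing enzymes, sinusoidal endothelium, stellate cells and biliary epithelium.

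**Figure D3:**
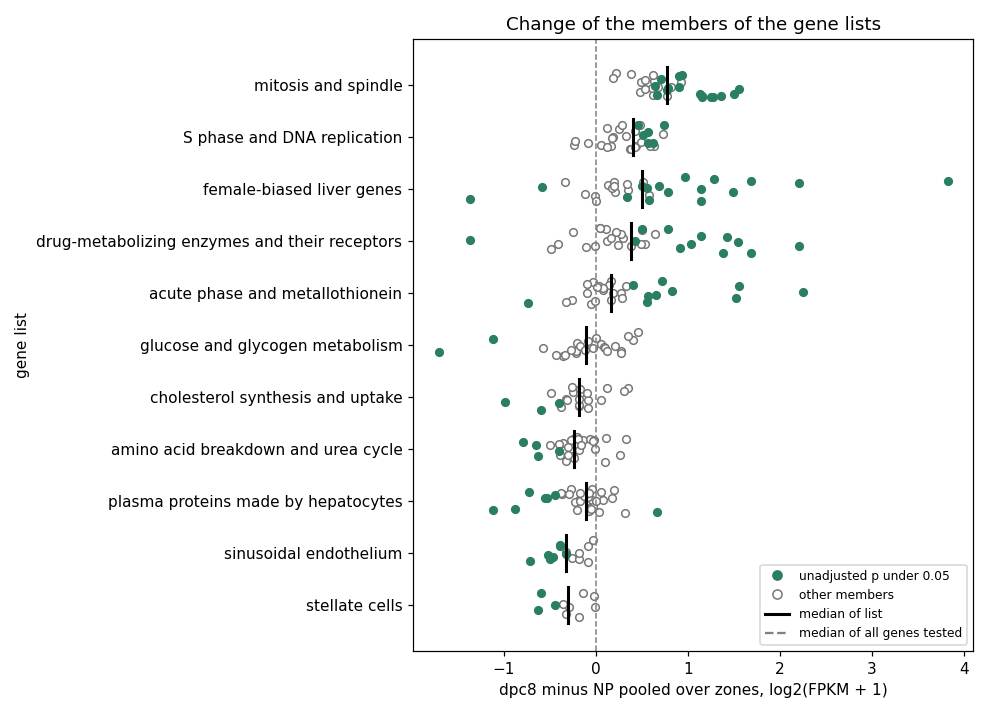
Difference between dpc8 and NP pooled over zones, on the log2(FPKM + 1) scale, for the members of 11 gene lists, with filled points for an unadjusted p under 0.05, black bars for list medians and a dashed line for the median of all genes tested. All 31 mitosis genes lie above 0, and all 14 sinusoidal endothelium genes below.

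Genes of mitosis and the spindle were higher in 31 of 31 cases, with a median of 0.77, and 16 had an unadjusted p under 0.05. Mki67, the proliferation antigen Ki-67, had a median FPKM of 1.46 in NP and 6.63 at dpc8 and a change of 1.50 ± 0.35 (SE, limma adjusted p = 0.165). Hmmr, a spindle and hyaluronan-binding protein, had at most 1.52 FPKM in NP and 7.81 at dpc8 and a change of 1.16 (limma adjusted p = 0.188). With zone 3 left out both passed, with limma adjusted p-values of 0.0491 for Mki67 and 0.0261 for Hmmr. Over the other alternatives the change ran from 0.84 to 2.00 for Mki67 and from 0.48 to 1.97 for Hmmr. The median of the list was 1.54 in zone 1, 1.12 in zone 2 and -0.16 in zone 3, although no gene passed the test of a difference between zones. Markers of smooth muscle and connective tissue had medians of the same signs, 0.40, 1.99 and -1.16. Without the 4 libraries with Y-linked FPKM the pooled median of the mitosis list was 0.90, and over the other alternatives it ran from 0.39 with a pseudocount of 5 to 1.29 with zone 3 left out. Genes of S phase and DNA replication were higher in 25 of 28 cases with a median of 0.40, and 6 had an unadjusted p under 0.05. The zone medians were 0.77, 0.45 and -0.13. The pooled median was 0.25 without dpc8 zone 1 replicate 1, one of the 4 libraries, and 0.18 to 0.66 over the other alternatives. Of 17 G1 cyclins and inhibitors of their kinases 13 were higher and 4 lower with a median of 0.18, and 4 were higher at an unadjusted p under 0.05. The median of this list was 0.04 without dpc8 zone 1 replicate 1 and 0.41 without NP zone 3 replicate 2. Cdkn2c, an inhibitor of the G1 kinases, had a change of 0.83 (limma adjusted p = 0.165), with 0.86, 0.69 and 0.92 in the 3 zones. Ccne1, cyclin E1, had 0.91 (limma adjusted p = 0.545), with 1.01, 1.65 and 0.08. The others were E2f1, a transcription factor of S phase entry, with zone values of 0.92, 0.46 and -0.01, and Rbl1, a relative of the retinoblastoma protein, with 0.84, 0.32 and 0.06.

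Of 29 female-biased liver genes tested, 23 were higher and 6 lower, with a median of 0.50. It was 0.30 without NP zone 3 replicate 2, one of the 4 libraries with Y-linked FPKM, and 0.38 without all 4. The zone medians were 0.33, 0.44 and 0.61. The list includes A1bg and Cyp3a44, and 14 members were higher and 2 lower at an unadjusted p under 0.05. Prlr, the prolactin receptor, had a median FPKM of 300.2 in NP and 459.9 at dpc8 and a change of 0.58 ± 0.16 (SE, limma adjusted p = 0.290). Cyp2b13 went the other way, from 95.5 to 40.7 FPKM, with a change of -1.37 (limma adjusted p = 0.188). The 23 male-biased genes tested were divided, 11 higher and 12 lower with a median of 0.00, and 1 higher and 2 lower at an unadjusted p under 0.05.

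In prolactin and growth hormone signaling, 7 of 17 genes were higher and 10 lower, with a median of -0.09, and 4 were higher and 3 lower at an unadjusted p under 0.05. Bcl6, a transcriptional repressor, had a median FPKM of 7.69 in NP and 1.74 at dpc8 and a change of -1.61 ± 0.42 (SE, limma adjusted p = 0.230). Socs2, a feedback inhibitor of prolactin and growth hormone signaling, had a change of 0.69 (limma adjusted p = 0.324). Drug-metabolizing enzymes and their receptors were higher in 25 of 31 cases with a median of 0.38, 11 of them at an unadjusted p under 0.05 and 1 lower. This list shares 7 genes with the female-biased list, Cyp2a4, Cyp2b9, Cyp2b10, Cyp2b13, Cyp3a16, Cyp3a41a and Cyp3a44. They include 5 of those 11 and the lower one, Cyp2b13, so the counts of these lists are not independent.

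Acute phase and metallothionein genes were higher in 20 of 28 cases with a median of 0.17, 9 of them at an unadjusted p under 0.05 and 1 lower. The zone medians were 0.05, 0.01 and 0.40, and the pooled median was 0.03 when dpc8 zone 3 replicate 1 was left out and 0.06 when this was replicate 1 of zone 2 at dpc8. Mt2, a metal-binding protein, had an FPKM of 31.1 at the lowest, 253 at the median and 681 at the highest in NP, and 606, 1121 and 2548 at dpc8. Its change was 2.25 ± 0.46 (SE, limma adjusted p = 0.0834), and it passed in 3 of the 19 other alternatives and 2 of the 18 fits on 17 libraries. Mt1 had a change of 1.56 (limma adjusted p = 0.179).

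Genes of lipid synthesis gave mixed counts. Srebf1, the transcription factor that drives fatty acid synthesis, had a median FPKM of 217 in NP and 90.7 at dpc8 and a change of -1.21 ± 0.26 (SE, limma adjusted p = 0.130). Scd1, a fatty acid desaturase, had a change of -0.74 (limma adjusted p = 0.328). Me1, malic enzyme, had 0.51 (limma adjusted p = 0.406) and Acacb, an acetyl-CoA carboxylase, 0.59 (limma adjusted p = 0.648). These 4 were the members of the list of fatty acid and triglyceride synthesis at an unadjusted p under 0.05, and the list was divided 11 higher to 9 lower with a median of 0.02. Cholesterol synthesis and uptake was lower in 17 of 21 cases with a median of -0.18 and 3 at an unadjusted p under 0.05. In fatty acid oxidation 17 of 23 genes were higher with a median of 0.15, and 3 were higher and 1 lower at an unadjusted p under 0.05. Cyp4a10, a fatty acid hydroxylase, had a change of 0.99 (limma adjusted p = 0.165).

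Amino acid breakdown and the urea cycle were lower in 24 of 28 cases with a median of -0.24, 4 of them at an unadjusted p under 0.05. The zone medians were -0.41, -0.44 and 0.07, and the pooled median was -0.14 without dpc8 zone 2 replicate 2 and -0.16 without NP zone 1 replicate 3. Plasma proteins were lower in 24 of 32 cases with a median of -0.11, and 6 were lower and 1 higher at an unadjusted p under 0.05. Their zone medians were -0.24, -0.27 and 0.07, and the pooled median ran from -0.16 without NP zone 1 replicate 1 to -0.04 without dpc8 zone 2 replicate 2. Apoa1, the main protein of high-density lipoprotein, had a median FPKM of 4434 in NP and 1980 at dpc8 and a change of -1.12 ± 0.22 (SE, limma adjusted p = 0.0784). Ttr, the carrier of thyroid hormone and retinol-binding protein, had a change of -0.88 (limma adjusted p = 0.135). Apoa1 passed in 5 and Ttr in 6 of the 19 other alternatives, among them the fit without the 4 libraries with Y-linked FPKM (limma adjusted p = 0.0119 for each).

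Markers of other cells were examined because a dissected area holds more than hepatocytes, and fewer cells of a type cannot be told apart from less RNA per cell. The 14 markers of sinusoidal endothelium were all lower, with a median of -0.33 and 7 at an unadjusted p under 0.05. Their summed FPKM ranged from 134 to 343 in NP and from 131 to 329 at dpc8. The 10 stellate cell markers were all lower as well, with a median of -0.31, 3 at an unadjusted p under 0.05 and summed FPKM of 203 to 448 in NP and 161 to 339 at dpc8. Hepatocyte markers were lower in 10 of 13 cases with a median of -0.36, 5 lower and 1 higher at an unadjusted p under 0.05, and 13 of 13 were detected. The higher one was A1bg. Their median was -0.24 without dpc8 zone 2 replicate 2 and -0.11 under quantile normalization. Apart from Hnf4a, each of these markers also belongs to another list here. Alb, Ttr, Apoa1, Apob, Serpina1c and Ahsg are in the plasma protein list, and Cps1 and Tat in that of amino acid breakdown. The counts of these lists are therefore not independent. Periportal hepatocyte markers were lower in 6 of 10 cases with a median of -0.12, and their zone medians were -0.47, -0.50 and 0.64. Without the 4 libraries with Y-linked FPKM their median was 0.15. Pericentral hepatocyte markers were lower in 8 of 10 cases with a median of -0.27, and their zone medians were -0.12, -0.40 and 0.07. None of either had an unadjusted p under 0.05. All 6 biliary epithelium markers tested, of 8, were lower with a median of -0.36, 2 of them at an unadjusted p under 0.05. Of the markers tested, 2 of 5 for lymphocytes and plasma cells, 2 of 4 for neutrophils and 2 of 7 for red cells were higher, with medians of -0.13, -0.26 and -0.17. Leaving out 1 library took the first to 0.05 (NP zone 3 replicate 1) and the last to 0.02 (NP zone 1 replicate 3). At an unadjusted p under 0.05, 1 neutrophil marker was lower, S100a9, and 1 higher, Lcn2, which is also counted in the acute phase list. Kupffer cell markers were higher in 7 of 12 cases with a median of 0.02, 1 of them at an unadjusted p under 0.05, and the sign of the median changed in 7 of the 18 fits on 17 libraries. Markers of smooth muscle and connective tissue were higher in 9 of 12 cases with a median of 0.18, and 1 was lower at an unadjusted p under 0.05. The sign of this median depended on single libraries, since it ran from -0.19 without dpc8 zone 1 replicate 1 to 0.65 without NP zone 1 replicate 1. With the connective tissue score as a covariate all 12 genes passed, and without the 4 libraries high in these markers, which are those with Y-linked FPKM, 10 of the 12 did, Eci3 and Fam84b being lost.

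**Figure D4:**
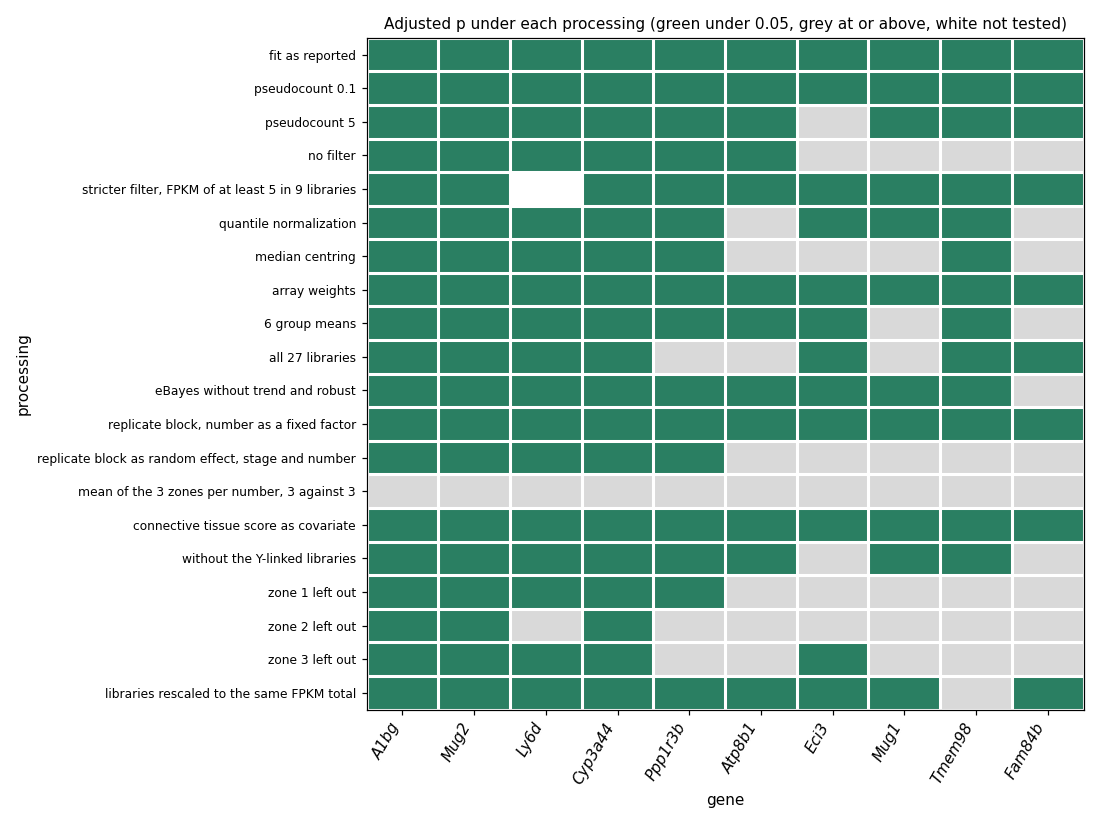
Whether each of 10 genes (columns) had an adjusted p under 0.05 under each processing (rows), in green where it did, grey where it did not and white where the gene was not tested. A1bg, Mug2 and Cyp3a44 are grey only for the means over zones, 3 against 3. Atp8b1, Eci3, Mug1, Tmem98 and Fam84b are grey in many rows.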

How the data were processed

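Laser-dissected liver zones were sequenced in 27 libraries, of which 18 (9 NP and 9 dpc8) were tested. Per the labels the authors used HISAT2 2.1.0, Cufflinks 2.2.1 with Cuffdiff and cutadapt on mm10, and the methods state that uniquely mapped reads were kept. The deposited values are FPKM as the authors computed them. Groups and replicate numbers came from the sample titles.

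Values were tested as log2(FPKM + 1) with limma 3.58.1 in R 4.3.3, with stage and zone as factors, an intensity trend and robust settings. Limma was used because Cuffdiff needs reads. The 12541 genes that reached 1 FPKM in 3 or more of the 18 libraries were kept, tests were two-sided, and the adjusted p threshold was 0.05 (Benjamini-Hochberg). In simulated data for this comparison with 12541 genes the fit called 91 of 100 genes changed by 2 on the log2 scale. It called 66 of 100 changed by 1 and 9 of 12341 unchanged genes. The simulated noise was independent between libraries, so these rates do not cover zones that share a mouse or the 4 libraries with Y-linked FPKM. Figures and sequences used Python 3.11.15. The positions printed are those of RefSeq on GRCm38.p6, and GENCODE on mm10 gave the transcript lengths for the depth estimate. Promoter windows were found for 6 of the 12 genes. Some genes that meet the naming rule, 2 of them past the threshold, are left out of the text and figures and counted only.

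The comparison, the gene lists and the genes named were chosen with earlier results of these data known. The rule named all genes past the threshold, A1bg, genes without overlap, and members of each list with the smallest p, up to 4. This last part was narrowed, after values were seen, to members with an unadjusted p under 0.05, and not all of those are described. Read depth was estimated from the spacing of low values, 86.8% to 96.7% of which were whole reads within 0.1 read. The settings of that estimate were adjusted after its first output was seen, and no test uses it.

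Alternatives covered pseudocounts, filters, normalization, weights, covariates, blocks and left-out libraries and zones.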

Additional observations from a re-analysis of the deposited data

Results flagged for a closer look

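Each of 10 genes past the threshold was examined at each stage for a library whose gap to the nearest other value was large for the range of the 9 values (Dixon's ratio above 0.493), which made 20 groups. Values on the log2 scale were first centred on the zone medians. By this measure 5 of 20 groups had such a library. A1bg was high in NP zone 1 replicate 2, at 589.5 FPKM. Mug2 was low in NP zone 1 replicate 1, at 127.9 FPKM, and Ly6d in NP zone 1 replicate 3, at 0.348 FPKM. Cyp3a44 was low in dpc8 zone 2 replicate 2, at 205.0 FPKM, and Fam84b in dpc8 zone 1 replicate 1, at 9.43 FPKM.

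How the values are centred decides all of these. With zone means in place of medians, or with no centring, 0 of 20 groups passed. The other centrings were tried after the first result had been seen. For values that are not centred chance gives about 1 group in 20, and the rate for centred values was not determined. The libraries of Mug2, Cyp3a44 and Fam84b named here are 3 of the 4 with Y-linked FPKM, and their part in these values was not tested.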

How the results depend on the processing

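The count of 12 genes (7 higher, 5 lower) depended on the processing. It was 51 (30 and 21) when limma weighted the libraries (array weights), 39 (20 and 19) when the connective tissue score was a covariate and 19 (12 and 7) with libraries rescaled to the same FPKM total, an alternative chosen after seeing the data. With all 27 libraries 12 genes were higher, without a filter 4 were higher, with median centring 3 were lower, and without the Y-linked libraries 8 were lower. With zone 1 left out the count was 7 (4 and 3), with zone 2 left out 4 (3 and 1), and with zone 3 left out 10, of which 1 was lower. Means over the zones, 3 against 3, gave 1 gene (1 and 0). Leaving out 1 library gave 7 to 14 genes, 4 to 8 higher and 3 to 7 lower, and the 7 came without dpc8 zone 2 replicate 1.

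With the replicate block as a fixed factor 20 genes passed (11 and 9), and with the replicate block as a random effect 7 (4 and 3). The latter ended the calls of Atp8b1, Mug1, Tmem98, Eci3 and Fam84b, with limma adjusted p-values of 0.0648, 0.0743, 0.0743, 0.106 and 0.137. Pairing by number was to be assumed only if every same-numbered pair deviated together from its group means with a correlation over 0.1. This held in 7 of 9 pairs of NP with dpc8 of one zone, 4 of 9 pairs of NP zones, 5 of 9 pairs of dpc8 zones and 7 of 18 other pairs, so no pairing was assumed. A1bg, Mug2, Ly6d, Cyp3a44 and Ppp1r3b passed in all 18 fits without 1 library (over the 19 other alternatives, 18 for A1bg, Mug2 and Cyp3a44, 15 for Ppp1r3b and, of 18, 16 for Ly6d), Atp8b1 in 15, Mug1 in 7, Eci3 in 6, Tmem98 in 4 and Fam84b in 2. Trf changed sign under quantile normalization, to 0.11, and did not pass in either fit. The count of genes whose change differed between zones was 0 in all 22 alternatives tried. Ly6d was listed at 0 in 4 NP libraries, and the part of depth in this was not tested.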

Other observations

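The lists not yet described held no gene past the adjusted threshold. Of 21 immediate early and heat shock genes 9 were higher and 12 lower, with a median of -0.03, and none had an unadjusted p under 0.05. Of 18 circadian clock genes 8 were higher and 10 lower with a median of -0.03, and Cry1, a repressor of the clock, had an unadjusted p of 0.007 in limma with a change of -0.99 (adjusted p = 0.415). Cytosolic ribosomal proteins were higher in 24 of 26 cases, but by a median of 0.12 and with none at an unadjusted p under 0.05. Subunits of oxidative phosphorylation were divided 13 to 13, with 26 entries from 25 symbols, a median of 0.00 and none at an unadjusted p under 0.05. Interferon-stimulated genes were lower in 17 of 24 cases with a median of -0.13 and 1 at an unadjusted p under 0.05, and genes of the secretory pathway in 17 of 23 with a median of -0.06 and 2 at that level. Bile acid genes were higher in 19 of 24 cases with a median of 0.12, 1 of them at an unadjusted p under 0.05. Steroid genes were lower in 12 of 20 cases with a median of -0.09, and 2 were lower and 1 higher at that level. Iron genes divided 8 to 8 with a median of -0.06, and 2 were higher and 2 lower at that level.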
